A study of Solanum lycopersicum with 84 samples.

Results

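A set of 48 tomato genes had more transcript in roots after nitrate supply while their transcript level in shoots stayed close to that of the controls. The set was chosen on CPM, the reads of a gene scaled to a total of 1000000 counted reads per library and not corrected for gene length. In roots, the mean +N CPM had to be at least 3 times the mean −N CPM and at least 2, with every +N library above every −N library. In shoots, the mean CPM had to be at least 2 in both treatments, with a ratio of +N to −N between 0.8 and its inverse. Of 34075 genes counted, 26869 had at least 1 read, 396 met the root criteria, 5123 met the shoot criteria and 48 met both. The remaining root-raised genes were 205 with a shoot mean under 2 CPM, 123 with a shoot ratio above the upper limit and 20 with a ratio under 0.8. These criteria use the N contrasts of both organs, so all values of +N against −N given here describe the choice, and calls on those contrasts are counted only beside their share over all genes, with nothing read from them.

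Tomato plants (Solanum lycopersicum, cultivar M82, with no transgene or mutation named) were germinated on agar plates and grown in hydroponics. At 22 days of age all plants were moved to medium without nitrogen for 4 days. They then received either medium with nitrate (+N) or fresh medium without it, with chloride as the control salt (−N), and roots and shoots were harvested after 6 h. Each of the 4 groups (root −N, root +N, shoot −N, shoot +N) had 3 biological replicates, each a pool of 4 plants, and poly(A) RNA was sequenced from each. Starvation was thus shared by all groups, and −N is the longer-starved state and not an untreated one.

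Roots take up nitrate through transporters of the plasma membrane and either store it, reduce it on the spot or load it into the xylem towards the shoot, so that nitrate reaches the root first. Nitrate is both a nutrient and a signal: in Arabidopsis, calcium signals and kinases that work with calcium sensors take part in the early response, and many transcription factors respond to nitrate. Assimilating it needs reductant, carbon skeletons from organic acids, and a molybdenum cofactor for nitrate reductase.

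The 12 libraries held 17472760 to 21901432 counted reads. Replicates of a group correlated between 0.989 and 0.992 on the log CPM scale and differed by more than sampling noise in every pair, so none was counted as a repeat of another. Of 44 genes listed as shoot markers (chlorophyll a-b binding proteins, the Rubisco small subunit and photosystem genes), the summed level was 4273 to 5019 CPM in −N shoots and 8011 to 8665 CPM in +N shoots, against 29.7 to 36.8 CPM in −N roots and 38.7 to 48.8 CPM in +N roots. No read was found for 28 of the 44 in −N roots, 30 in +N roots, 28 in −N shoots and 26 in +N shoots. Of 13 root markers the sum was 396 to 454 CPM in −N roots and 1134 to 1220 CPM in +N roots, against 36.5 to 45.2 and 49.7 to 55.0 CPM in shoots. By these sums both organs carried their labelled markers, which does not hold for each marker. The photosystem II D2 gene Solyc08g067700.1, a listed shoot marker, had 3.56 CPM in −N roots, 1.13 CPM in +N roots and no read in shoots. In whole organs, fewer cells of a type and less RNA per cell cannot be told apart.

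Together the members took 0.182% ± 0.0249 of the reads in −N roots and 0.852% ± 0.0361 in +N roots (SD, n = 3). In shoots they took 0.216% ± 0.0085 in −N and 0.229% ± 0.0054 in +N (SD, n = 3). The ratio of root means ran from 3.02 to 112 with a median of 3.86: it was under 4 for 26 members, from 4 up to 6 for 15 and 6 or more for 7. The ratio of shoot means had a median of 1.03, with 26 members above 1 and 22 under it, and 21 lay between 0.9 and 1.1. Within the band that the criteria allow, the shoot libraries of the 2 treatments still did not overlap for 13 members, 7 of them higher in +N and 6 higher in −N. These directions are those of CPM and depend on the scaling, as given below. Over the 17352 genes with at least 2 CPM in both shoot groups, 26.6% were higher in +N without overlap and 53.2% higher in −N. Replicates were tight for most members: the median coefficient of variation (SD as a percent of the mean) was 12.1% in −N roots, 7.19% in +N roots, 8.46% in −N shoots and 6.79% in +N shoots.

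**Figure D1:**
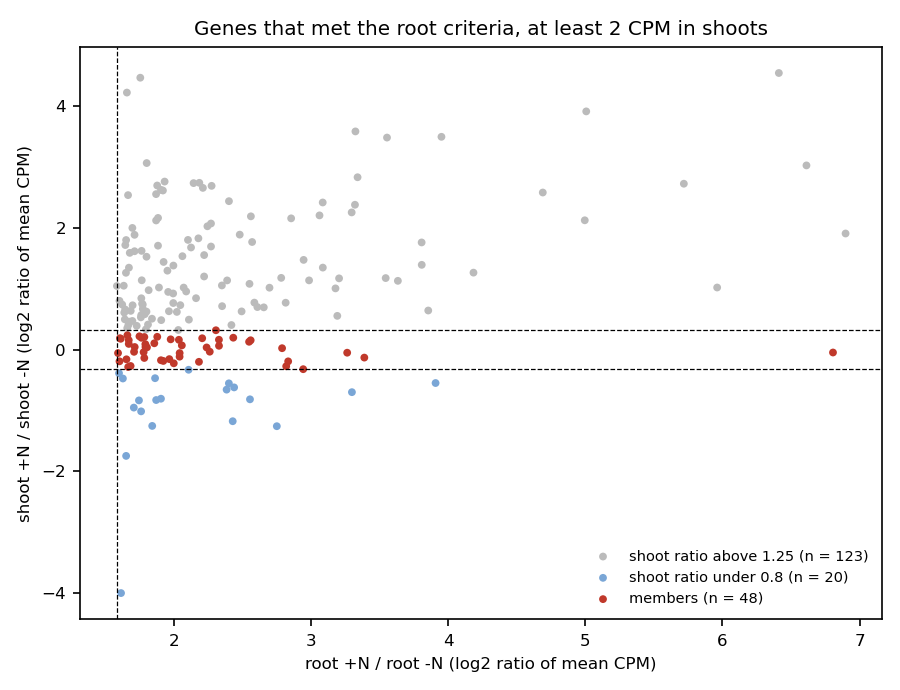
Log2 ratio of mean +N to mean −N CPM in roots (horizontal axis) and in shoots (vertical axis) for the genes that met the root criteria and had at least 2 CPM in shoots: 48 members, 123 genes above the upper shoot limit and 20 with a ratio under 0.8. Dashed lines mark the limit of 3 for roots and the limits of 0.8 and its inverse for shoots, and the members lie in the band between the 2 shoot limits because they were chosen so.

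The limits cut through a continuous spread. Just inside the root limit was Solyc04g058160.2, described as a calcium-dependent kinase, with a root ratio of 3.02. So were the LUMINIDEPENDENS gene Solyc09g074690.3 with 3.04 and the zinc finger gene Solyc08g006470.4 with 3.05. Just outside were Solyc09g074700.2 with 2.997, Solyc06g068950.4 with 2.96 and Solyc01g109800.2 with 2.94. The first of these is also described as LUMINIDEPENDENS, and how reads that fit more than 1 gene were counted is not stated in the study's methods, so values of such related copies are uncertain. At the lower shoot limit the glycosyltransferase gene Solyc08g062220.3 (0.801) and the Rab-GAP gene Solyc10g006440.3 (0.821) were inside, and Solyc05g005750.3 (0.795) and Solyc01g100690.3 (0.764) outside. At the upper limit Solyc01g108910.4 (1.247) and Solyc06g036130.4 (1.178) were inside, and Solyc03g031890.3 (1.251) and Solyc04g081590.4 (1.260) outside.

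The 6 metabolic members covered sugar breakdown, organic acids, fatty acids, leucine and glycosylation. The member with the most reads was Solyc12g009300.3, described as fruit sucrose synthase, an enzyme that splits sucrose into UDP-glucose and fructose. Its −N root libraries read 381, 460 and 596 CPM and its +N root libraries 3542, 3394 and 3322 CPM. The −N shoots read 19.9, 19.0 and 20.6 CPM and the +N shoots 18.7, 16.9 and 16.5 CPM. The root groups were far apart, and in CPM the shoot groups were just apart, with −N slightly higher. That order depended on the scaling: the gene's shoot log2 change was −0.19 with total counts and 0.10 with TMM (explained below), where it was not called. Citrate synthase (Solyc01g073740.4), which makes citrate for the mitochondrial citric acid cycle, read 193, 184 and 179 CPM in −N roots and 617, 629 and 644 CPM in +N roots. Its shoots read 140, 135 and 130 CPM in −N and 155, 153 and 155 CPM in +N. Of all members it had the smallest largest coefficient of variation in any group (3.65%), and with so little spread its shoot groups were also separate, here with +N higher.

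Both plastid fatty acid genes among the members met the root criteria at opposite organ balances. The acyl-[acyl-carrier-protein] desaturase gene Solyc11g008680.2, whose enzyme family puts a double bond into newly made fatty acids, read 140, 200 and 231 CPM in −N roots and 637, 589 and 612 CPM in +N roots, but 8.64, 8.43 and 9.45 CPM in −N shoots and 7.26, 6.97 and 7.80 CPM in +N shoots. The gene for the alpha subunit of the acetyl-CoA carboxylase carboxyl transferase (Solyc01g094340.3), part of the enzyme that commits carbon to fatty acids, read 5.46, 6.42 and 7.73 CPM in −N roots and 24.7, 18.8 and 24.0 CPM in +N roots. In shoots it read 54.8, 47.9 and 45.7 CPM in −N and 54.6, 60.8 and 55.9 CPM in +N. The desaturase gene was thus higher in every root library than in any shoot library, and the carboxylase gene the reverse. The large subunit of 3-isopropylmalate dehydratase (Solyc09g090900.4), a step of leucine synthesis, was low throughout, with means of 0.672 CPM in −N roots, 2.63 CPM in +N roots, 3.15 CPM in −N shoots and 2.83 CPM in +N shoots. The glycosyltransferase gene Solyc08g062220.3 went from a mean of 0.460 to 3.54 CPM in roots, while shoots held 61.8 CPM in −N and 49.5 CPM in +N.

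Of the 5 transport members, the molybdate transporter gene Solyc10g084680.1 concerns the metal of the nitrate reductase cofactor. It read 6.03, 5.00 and 5.20 CPM in −N roots and 29.7, 32.8 and 32.5 CPM in +N roots. In shoots it read 3.41, 3.09 and 3.29 CPM in −N and 4.79, 3.39 and 2.53 CPM in +N. The +N roots were separate from the rest, and the +N shoots enclosed the −N shoots. A member of the sulfite exporter TauE/SafE family (Solyc03g031530.4) had the widest root contrast among members with at least 1 CPM in −N roots. It read 12.5, 12.0 and 13.4 CPM in −N roots and 131, 130 and 136 CPM in +N roots. Its shoots read 12.7, 12.8 and 11.3 CPM in −N and 12.5, 11.1 and 10.1 CPM in +N, so that 3 of the 4 groups shared 1 level and only +N roots stood out.

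The other transport members were at shoot levels near or above those of +N roots. The purine permease gene Solyc08g077370.4 had means of 4.44 CPM in −N roots and 21.0 CPM in +N roots, and 17.5 and 18.0 CPM in −N and +N shoots. The DETOXIFICATION gene Solyc06g036130.4, of the family of multidrug and toxin efflux carriers, had 5.41 and 17.1 CPM in roots and 11.5 and 13.5 CPM in shoots. The gene described as phosphate transporter PHO1-3 (Solyc05g010060.4) was low in −N roots, with 1.54, 0.441 and 1.13 CPM, against 4.0, 3.95 and 4.98 CPM in +N roots. Its shoots had means of 6.21 CPM in −N and 6.52 CPM in +N.

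The 7 kinase and calcium members include 2 genes whose Arabidopsis homologs are CBL-interacting protein kinases, enzymes that are switched on by calcium sensors. The CIPK1 homolog Solyc05g053210.4 read 31.2, 29.97 and 35.3 CPM in −N roots and 107, 113 and 116 CPM in +N roots. In shoots it read 38.6, 43.0 and 40.2 CPM in −N and 37.8, 41.9 and 45.3 CPM in +N, with full overlap of the treatments. The CIPK7 homolog Solyc03g005330.1 read 17.4, 17.3 and 20.4 CPM in −N roots and 101, 100 and 97.0 CPM in +N roots, and its shoots read 7.06, 6.45 and 7.63 CPM in −N and 7.73, 7.82 and 8.67 CPM in +N. Both kinase genes were separate by treatment in roots, as the criteria require, and the second was also separate in shoots by a small margin. For 4 further signalling members the means in −N and +N roots were 14.8 and 74.4 CPM for a protein phosphatase 2C (Solyc01g066870.3), 9.03 and 28.5 CPM for an EF-hand calcium-binding protein (Solyc01g073710.2), 3.77 and 11.4 CPM for the calcium-dependent kinase gene (Solyc04g058160.2) and 31.0 and 118 CPM for a C2 calcium/lipid-binding protein (Solyc08g008020.1). In shoots these 4 held 23.2 and 26.0, 5.92 and 5.30, 5.25 and 5.05, and 5.92 and 5.21 CPM in −N and +N. The kinase name of Solyc04g058160.2 is only that of its description, and the Arabidopsis homolog listed for it is AT1G21550. Whether it encodes a kinase was not tested.

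The seventh of this group, ACI19 (Solyc02g065550.4), carries the domain DUF607, which is that of the mitochondrial calcium uniporter. Its roots read 5.91, 6.81 and 5.26 CPM in −N and 36.4, 46.8 and 43.7 CPM in +N. Its shoots read 15.4, 17.1 and 17.5 CPM in −N and 14.7, 14 and 12.7 CPM in +N. Shoots were above every −N root library and below every +N root library, and in CPM the −N shoots were above the +N shoots. The shoot log2 change of ACI19 was −0.27 with total counts and 0.02 with TMM, where it was not called.

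Names from the circadian clock, light signalling or the chloroplast were given to 8 members. Among clock genes, REVEILLE proteins are MYB-like factors that act close to the clock in Arabidopsis, and cycling Dof factors delay flowering there. The REVEILLE 7-like gene Solyc02g036370.3 read 7.16, 6.02 and 6.39 CPM in −N roots and 31.3, 27.8 and 31.4 CPM in +N roots, and in shoots 3.90, 5.02 and 4.75 CPM in −N and 3.84, 5.42 and 6.31 CPM in +N. The gene described as REVEILLE 1 (Solyc03g098320.4) was near the 2 CPM minimum in 3 of the 4 groups, with means of 2.00 CPM in −N roots, 6.57 CPM in +N roots, 2.11 CPM in −N shoots and 2.06 CPM in +N shoots. Both REVEILLE names are those of the descriptions. The Arabidopsis homologs listed, AT5G17300 for Solyc02g036370.3 and AT1G18330 for Solyc03g098320.4, do not follow these names. Which Arabidopsis gene each corresponds to was not tested. The Dof zinc finger gene Solyc02g088070.3, with CDF2 as its Arabidopsis homolog, had means of 6.72 and 23.3 CPM in −N and +N roots and of 2.36 and 2.51 CPM in shoots. These 3 clock-named genes were higher in +N roots than in any other group, with no overlap.

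The light-named members lay mostly on the shoot side. CONSTANS-LIKE 4 (Solyc12g096500.2), a zinc finger factor of a family that links day length to development, read 11.4, 12.0 and 14.1 CPM in −N roots and 38.8, 42.4 and 41.8 CPM in +N roots, against 121, 163 and 143 CPM in −N shoots and 138, 155 and 147 CPM in +N shoots. The PHYTOCHROME KINASE SUBSTRATE 3-like gene Solyc03g116160.1 had means of 2.83 and 10.3 CPM in roots and 20.6 and 22.2 CPM in shoots. PLASTID MOVEMENT IMPAIRED 2 (Solyc02g086350.3), needed for chloroplast movement in Arabidopsis, had 1.75 and 5.35 CPM in roots and 11.9 and 13.5 CPM in shoots. For each of these 3 genes every shoot library was above every +N root library. FLUORESCENT IN BLUE LIGHT (Solyc09g072880.3), which restrains chlorophyll synthesis in the dark in Arabidopsis, instead had shoots between the root groups, with 21.0 and 77.4 CPM in roots and 31.3 and 36.2 CPM in shoots.

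One member, Solyc12g011450.2, is a chlorophyll a-b binding protein and so belongs to the shoot marker list itself. Its roots read 1.08, 0.735 and 0.858 CPM in −N and 4.21, 4.89 and 4.35 CPM in +N. Its shoots read 790, 719 and 680 CPM in −N and 766, 786 and 735 CPM in +N. The root level was thus 0.122% of the shoot level in −N and 0.588% in +N. Of the 44 shoot markers, 16 had reads in roots, 10 of them were higher in +N roots, and the median of their root ratios was 1.114. This member was the only 1 of the 16 with a root ratio of 3 or more. The summed markers moved with the treatment in roots as given above, and the part of shoot tissue in root samples was not tested.

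**Figure D2:**
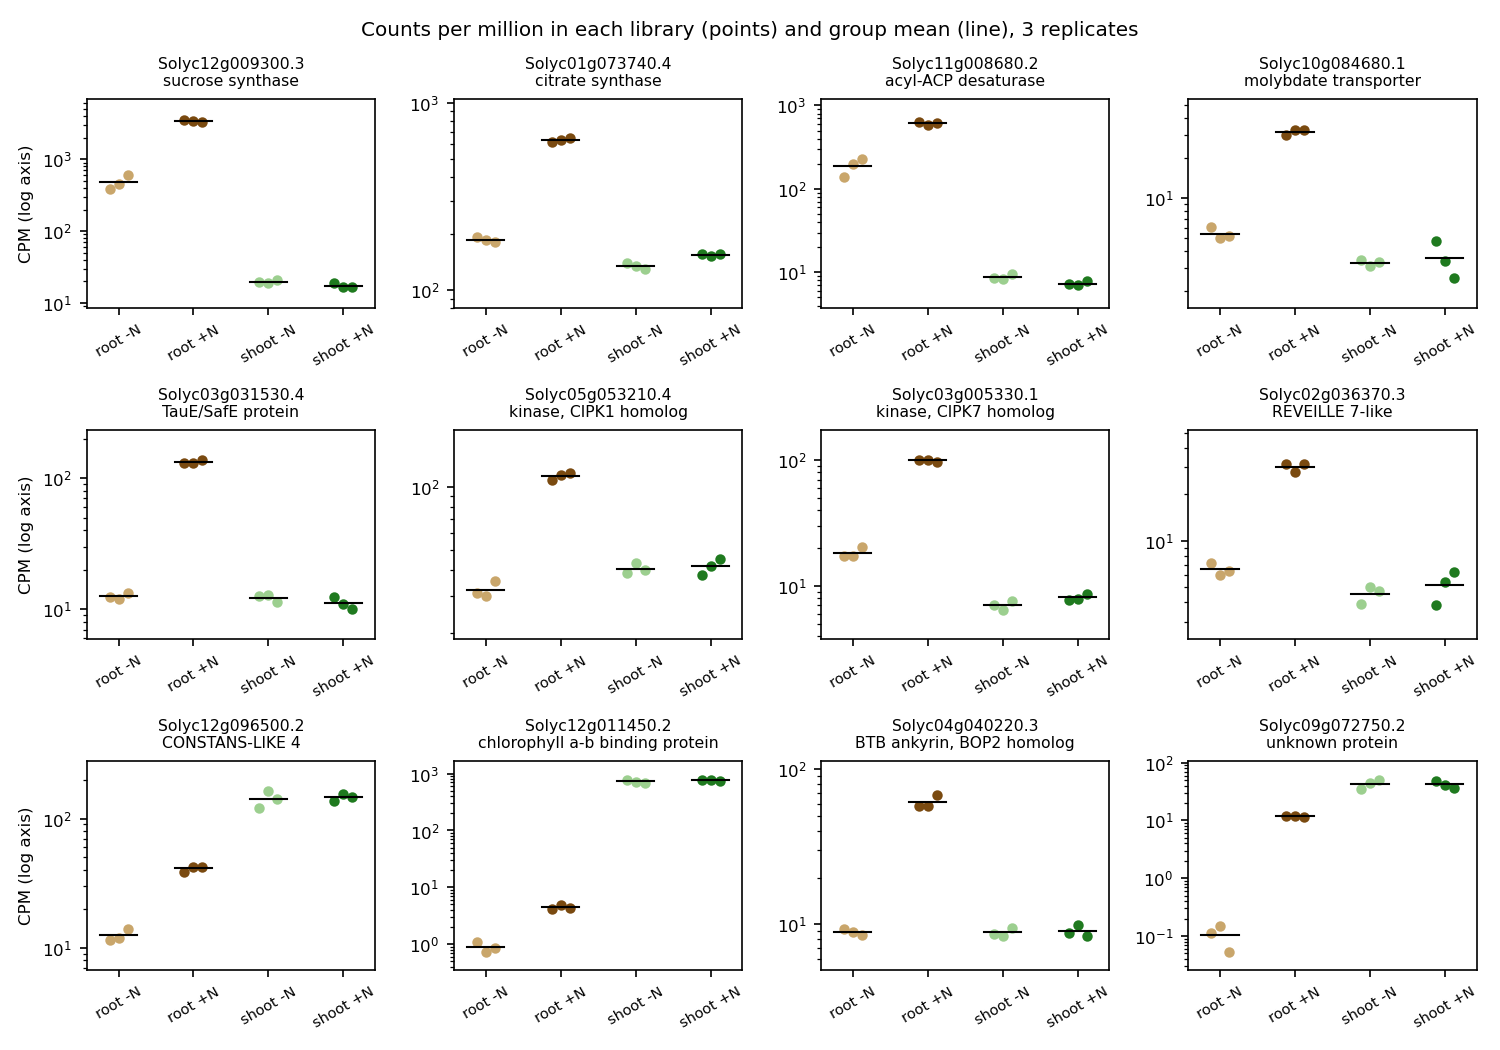
CPM of 12 members in each library on log axes, with a line at the mean of the 3 replicates of each group (root −N, root +N, shoot −N, shoot +N). The +N root points lie apart from the −N root points in each panel, as the choice of members fixes. The shoot points lie below the root points (sucrose synthase, 16.5 to 20.6 CPM), beside the −N roots (TauE/SafE protein, 10.1 to 12.8 CPM) or far above the root points (chlorophyll a-b binding protein, 680 to 790 CPM).

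Other members grouped as regulators, by hand from their descriptions, numbered 6. The BTB/POZ ankyrin repeat gene Solyc04g040220.3 has BOP2 (BLADE ON PETIOLE 2) as its Arabidopsis homolog, a cofactor that sets organ boundaries. It read 9.27, 8.87 and 8.48 CPM in −N roots and 58.0, 58.2 and 67.9 CPM in +N roots. In shoots it read 8.69, 8.43 and 9.45 CPM in −N and 8.73, 9.89 and 8.40 CPM in +N, so that the shoots and the −N roots shared 1 range. The trihelix gene Solyc04g045430.4, ASR3-like, had means of 26.6 and 92.2 CPM in roots and 21.7 and 22.4 CPM in shoots. LUMINIDEPENDENS (Solyc09g074690.3), a homeobox protein tied to flowering time in Arabidopsis, had 14.7 and 44.8 CPM in roots and 6.86 and 6.01 CPM in shoots.

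Cytokinin oxidase2 (Solyc01g088160.4), of the family that breaks down cytokinins, read 2.16, 2.20 and 3.33 CPM in −N roots and 11.3, 10.7 and 9.67 CPM in +N roots, against 7.11, 8.94 and 9.86 CPM in −N shoots and 8.99, 8.24 and 7.69 CPM in +N shoots. Only its −N roots stood apart, on the low side. The gene described as dehydration-responsive element-binding protein 2d-like (Solyc06g033850.3) had the largest coefficient of variation of any member in a group (56.4%), since its −N roots read 0.455, 0.245 and 0.805 CPM. In +N roots it read 5.56, 4.72 and 4.18 CPM, and in shoots 6.12, 6.78 and 5.02 CPM in −N and 5.52, 6.08 and 5.71 CPM in +N. The zinc finger gene Solyc08g006470.4, with AT2G24500 as its listed Arabidopsis homolog, had means of 4.66 and 14.2 CPM in roots and 3.53 and 4.02 CPM in shoots. Whether its protein binds DNA or acts as a regulator was not tested.

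Protein synthesis and turnover supplied 6 members. The F-box gene Solyc02g092290.4, of a family whose proteins pick substrates for ubiquitin ligases, read 50.7, 72.8 and 85.8 CPM in −N roots and 256, 253 and 213 CPM in +N roots, and had shoot means of 28.0 and 25.5 CPM in −N and +N. The class I peptide chain release factor gene Solyc08g079490.4, which ends protein chains, read 13.7, 13.7 and 12.7 CPM in −N roots and 66.1, 59.6 and 66.9 CPM in +N roots, with shoot means of 22.4 and 21.9 CPM. Both were separate by treatment in roots, as the criteria require. Shoots lay between the root groups for the release factor gene and under both for the F-box gene. The MIEL1-like E3 ubiquitin ligase gene Solyc06g054540.3 had 14 and 47.2 CPM in roots and 16.5 and 19.2 CPM in shoots. The 3 others lay higher in shoots than in roots: a rhomboid domain protein (Solyc02g085760.2) with 4.98 and 19.6 CPM in roots and 128 and 144 CPM in shoots, a RING/U-box protein (Solyc12g005020.2) with 2.67 and 11 CPM against 17 and 15.7 CPM, and a proteinase inhibitor type-2 (Solyc03g020030.3) with 0.587 and 2.41 CPM against 6.95 and 7.78 CPM.

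The 10 remaining members act at the cell wall, the cytoskeleton or vesicles, or have names that say little of what they do. The pectinesterase gene Solyc02g080200.4, whose enzyme removes methyl groups from wall pectin, read 355, 371 and 427 CPM in −N roots and 1771, 1359 and 1487 CPM in +N roots. Its shoots read 11.2, 7.19 and 12.4 CPM in −N and 8.57, 8.10 and 9.66 CPM in +N. All its root libraries were far above all its shoot libraries, whose treatments overlapped. An actin-depolymerizing factor gene (Solyc09g072590.3) had means of 23.5 and 88.2 CPM in roots and 21.4 and 19.0 CPM in shoots. The Rab-GAP domain gene Solyc10g006440.3, of a family that turns off vesicle GTPases, had 1.57 and 5.00 CPM in roots and 6.85 and 5.62 CPM in shoots.

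Solyc09g072750.2, described only as an unknown protein, had by far the largest ratio. Its −N roots held 6 reads in all 3 libraries together (0.114, 0.147 and 0.0537 CPM), and its +N roots 644 reads (11.8, 12.0 and 11.4 CPM). Its shoots read 34.8, 44.8 and 50.9 CPM in −N and 49.1, 40.4 and 36.8 CPM in +N. The gene was therefore near the detection limit in a single group, −N roots, and the ratio of 112 rests on those 6 reads. TSJT1 (Solyc02g078380.3), named as stem-specific, was a gene of roots here, with 115 and 368 CPM in roots and 6.32 and 6.75 CPM in shoots. Solyc01g108910.4 (maternal effect embryo arrest 14) had 31.9 and 158 CPM in roots and 259 and 323 CPM in shoots. Root and shoot means in −N and +N for the last 4 were 8.73 and 51.5 against 16.3 and 18.1 CPM for wound-induced protein 1 (Solyc06g050760.1), 11.5 and 39.4 against 83.2 and 80.9 CPM for a transmembrane protein (Solyc03g095990.1), 7.43 and 33.8 against 49.3 and 42.9 CPM for T7H20-70 (Solyc06g076470.3), and 8.24 and 26.3 against 13.1 and 14.6 CPM for an acylphosphatase (Solyc09g008190.3).

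The criteria set the order of the organs only in part: a member under 2 CPM in −N roots had to be higher in shoots in −N, which held for 9 members (0.105 to 1.75 CPM in −N roots). By mean CPM, both shoot groups were above +N roots for 17 members, under −N roots for 17, between the root groups for 13 and on both sides of a root mean for 1. Of the 8 clock and light genes, 4 had shoots above +N roots. Of the 7 kinase and calcium genes none did, with 3 under −N roots and 4 between. As a set the members thus lay on both sides of the root levels.

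The organs were tested against each other within each treatment by edgeR's quasi-likelihood test on 22483 genes, with TMM scaling (a per-library factor that centres most genes on no change) and calls where the adjusted p was at most 0.015 and the difference at least 2-fold. These tests use the same libraries that chose the members in other contrasts, and the minimum of 2 CPM in shoots had no counterpart in −N roots. In −N, 21 of 48 members (43.8%) were higher in shoots and 9 (18.8%) higher in roots, where 19.8% and 18.1% of all genes tested were called. The 9 members under 2 CPM in −N roots, whose direction the minimum in shoots fixed, were all among the 21, and of the other 39 members 12 were higher in shoots and 9 higher in roots. The shares of members in either direction therefore carry the choice of genes, and no excess over all genes is read from them. The median shoot minus root log2 difference was 0.75 over the members and 0.01 over all genes tested. In +N, 11 members (22.9%) were higher in shoots and 26 (54.2%) higher in roots, beside 22.8% and 22% of all genes, with a median log2 difference of −1.23 over the members and 0.00106 over all genes. The move towards roots between the treatments follows from the choice of genes that are higher in +N roots and steady in shoots. All 9 members higher in roots in −N were so in +N as well, and 16 members that were not called in −N were higher in roots in +N. Of the 21 members higher in shoots in −N, 11 were still so in +N, 9 were not called and 1 was higher in roots.

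In −N the 3 largest differences towards roots were those of pectinesterase (Solyc02g080200.4), with a shoot minus root log2 difference of −5.14 ± 0.13 (SE, adjusted p = 2.7e-19 by edgeR), of sucrose synthase (Solyc12g009300.3), with −4.50 ± 0.12 (adjusted p = 5.3e-19), and of the acyl-[acyl-carrier-protein] desaturase (Solyc11g008680.2), with −4.34 ± 0.14 (adjusted p = 1.7e-17). After nitrate the log2 differences of these genes were −7.33 ± 0.14, −7.49 ± 0.13 and −6.25 ± 0.15. The 3 largest towards shoots were those of the chlorophyll a-b binding protein (Solyc12g011450.2), with 9.77 ± 0.10 (adjusted p = 9.6e-26), of the unknown protein (Solyc09g072750.2), with 8.68 ± 0.27 (adjusted p = 7.4e-18), and of the glycosyltransferase (Solyc08g062220.3), with 7.14 ± 0.16 (adjusted p = 2.4e-20). In +N these were 7.54 ± 0.08, 1.98 ± 0.13 and 3.94 ± 0.12. The unknown protein gene was thus nearer to balance between organs in +N than the other 2, though still called higher in shoots.

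The member that changed sides was ACI19 (Solyc02g065550.4): its shoot minus root log2 difference was 1.56 ± 0.12 in −N (adjusted p = 1.2e-10) and −1.49 ± 0.10 in +N (adjusted p = 1.3e-11, edgeR). At the other end, several members had organ levels too close to separate in −N. The log2 difference was 0.05 ± 0.09 for the TauE/SafE gene Solyc03g031530.4 (adjusted p = 0.61, edgeR), 0.09 ± 0.11 for the BOP2 homolog Solyc04g040220.3 (adjusted p = 0.45) and −0.04 ± 0.07 for the actin-depolymerizing factor gene Solyc09g072590.3 (adjusted p = 0.59). In +N the same 3 genes were higher in roots, with log2 differences of −3.43 ± 0.08, −2.63 ± 0.09 and −2.08 ± 0.06. The reverse course, apart in −N and close in +N, was that of cytokinin oxidase2 (Solyc01g088160.4), with 1.84 ± 0.18 in −N (adjusted p = 4.7e-09) and −0.22 ± 0.15 in +N (adjusted p = 0.19), and of the purine permease Solyc08g077370.4, with 2.07 ± 0.15 (adjusted p = 3.2e-11) and −0.09 ± 0.13 (adjusted p = 0.49). Only the FLU gene (Solyc09g072880.3) and the acylphosphatase gene (Solyc09g008190.3) passed the 2-fold limit in neither treatment, and the FLU gene, at −0.96 in +N, passed it there with total counts (−1.09).

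**Figure D3:**
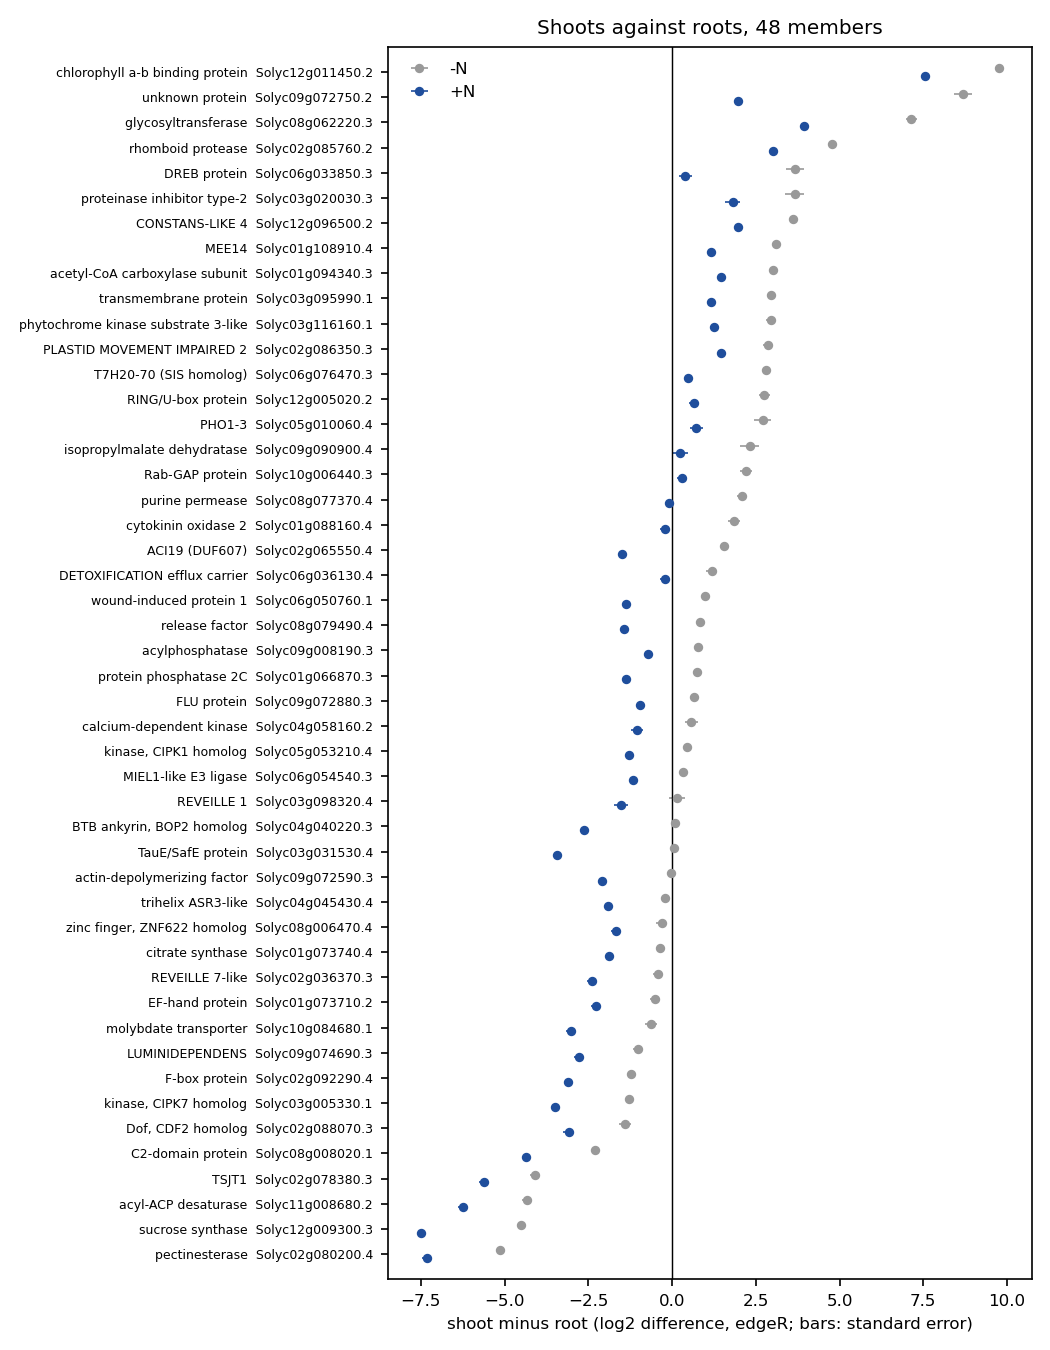
Shoot minus root log2 difference of each of the 48 members in −N (grey) and +N (blue), from the edgeR fit of 12 libraries, with standard errors as bars, ordered by the value in −N. The −N values run from −5.14 (pectinesterase) to 9.77 (chlorophyll a-b binding protein), and each +N value lies to the left of its −N value, as the choice of members fixes.

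How steady the members were in shoots depended on the scaling. The mean TMM factors were 1.108 for −N shoots and 0.902 for +N shoots, so TMM raised ratios of +N to −N by about 1.23 times over the CPM used to choose the members. With total counts the shoot log2 changes of the members ran from −0.32 to 0.32 with a median of 0.04, where the median of all 20689 genes tested was −0.30. With TMM they ran from −0.03 to 0.62 with a median of 0.33, beside −0.01 over all genes. No member was called in shoots by edgeR under those 2 limits, where 13.4% of genes were higher in +N and 7.62% lower. DESeq2 called none either, beside 2765 genes higher and 1536 lower of 23064 tested. At an unadjusted p under 0.05, 27 members were higher in +N and 0 lower by edgeR, beside 35.7% and 34.8% of all genes, and 25 and 0 by DESeq2, beside 28% and 26.9%. At an adjusted p of 0.05 with no fold limit, edgeR with TMM gave 26 members higher in +N (54.2%) and 0 lower, beside 34.8% and 33.5% of all genes. With total counts it gave 5 higher (10.4%) and 2 lower (4.17%), beside 23.6% and 49.5%. These calls are on the contrast that chose the members, and nothing is read from them beyond the dependence on scaling.

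Applied to TMM-scaled CPM, the same criteria gave 43 genes, 22 of them among the 48. For the 26 members that left, the TMM-scaled shoot ratio was between 1.20 and 1.53 (the lowest being REVEILLE 1, which left by the minimum of 2 CPM in −N shoots), and for those that stayed it was between 0.983 and 1.248. Sucrose synthase, pectinesterase, the acyl-[acyl-carrier-protein] desaturase, the TauE/SafE gene, the BOP2 homolog, ACI19, cytokinin oxidase2 and the unknown protein gene stayed. Citrate synthase, both CIPK homologs, the molybdate transporter and all 8 clock and light genes left. All 48 members were called higher in +N roots with TMM and with total counts. Beside them, 6.23% of all genes were higher and 6.38% lower with TMM, and 991 higher and 1886 lower of 21049 with total counts. With TMM the change in shoots was smaller than in roots for all 48 at an adjusted p of 0.05 for the interaction (beside 25.5% of genes in that direction and 22.9% in the other). Both counts are fixed by the choice of members.

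**Figure D4:**
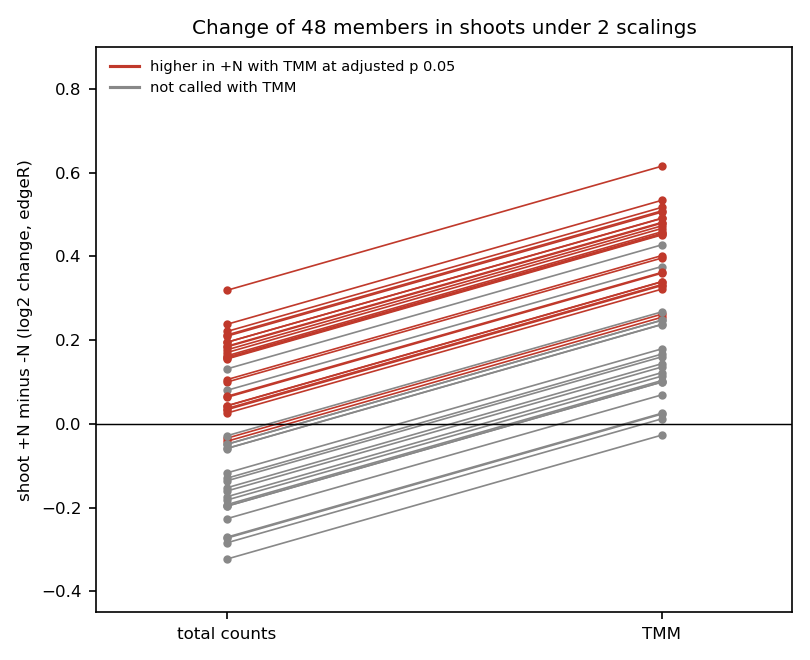
Log2 change of the 48 members in shoots (+N minus −N, edgeR) with total counts and with TMM scaling, each line being 1 gene. The median moves from 0.04 to 0.33, and the 26 genes drawn in red were higher in +N with TMM at an adjusted p of 0.05.

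Against the other root-raised genes with at least 2 CPM in shoots, the members had fewer reads per gene in roots, as a description with no test. The median mean CPM in −N and +N roots was 7.83 and 32.7 for the members, 11.4 and 72.6 for the 123 genes above the upper shoot limit, and 23.2 and 124 for the 20 genes with a ratio under 0.8. The median root ratios of these groups were close, at 3.86, 4.18 and 3.71. The median ratio of shoot to root CPM in −N was 1.58 for the members, 1.02 for the 123 genes and 0.782 for the 20. In +N it was 0.389, 0.567 and 0.0692, so that the members had the highest of the 3 medians in −N and lay between the other groups in +N. Since the groups were split by their shoot ratio, these medians also carry the choice. In −N, 38 of the 123 were called higher in shoots and 27 higher in roots, and 3 and 8 of the 20. In +N it was 26 and 53 of the 123, and 0 and 19 of the 20.

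By function classes drawn on gene descriptions, no member fell under nitrate uptake and assimilation. That class held 15 of the 396 root-raised genes, of which 7 were above the upper shoot limit, 1 had a ratio under 0.8 and 7 were under 2 CPM in shoots. Over all described genes of the class, 22 of 47 tested were called higher in +N roots and 20 lower, and 14 of 44 were called higher in +N shoots and 11 lower. Reducing power and pentose phosphates, with 6 of the 396, and redox and chaperones, with 16, had no member either. The members were 48 of the 396, and at that share classes of 6, 15 or 16 genes would hold few members. Their absence is therefore not read as a trait of the set. Kinases, phosphatases and calcium signalling had 7 members, which are not the same 7 as the role group of kinase and calcium genes above. The class includes the acylphosphatase and the PHYTOCHROME KINASE SUBSTRATE 3-like gene and leaves out ACI19 and the C2 protein gene. It had 6 root-raised genes above the upper limit, 0 under 0.8 and 16 under 2 CPM in shoots. In that class 78 of 305 described genes were called higher in +N roots and 115 lower, and in shoots 30 of 283 higher and 55 lower. Transcription factors and zinc finger proteins had 8 members, with 6 root-raised genes above the upper limit, 1 under 0.8 and 12 under 2 CPM, in a class where 93 of 315 were called higher in +N roots and 97 lower, and 31 of 290 higher in +N shoots and 59 lower. Genes have a description here only where the study listed them for a change in transcript or histone marks, so these counts are not shares of the genome.

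By their identifiers the members lay on 11 of the 12 chromosomes, with 8 on chromosome 2, 6 each on chromosomes 1, 3 and 9 and 0 on chromosome 7. Of all genes with a read, 10.7% were on chromosome 2, 12.5%, 10.4% and 7.27% on chromosomes 1, 3 and 9, and 7.47% on chromosome 7. With counts this small, the positions are not read as a trait of the set. A single pair was within 5 genes of each other: the EF-hand gene Solyc01g073710.2 and citrate synthase Solyc01g073740.4, with 2 genes between them. Of those, Solyc01g073730.4 had a root ratio of 3.12 but a shoot ratio of 1.53, and Solyc01g073720.2 had a root ratio of 1.83. The Arabidopsis homologs of the pair, AT2G44310 and AT2G44350, are also close to each other by identifier. The use of strand in counting is not given in the sources used here, and reads of overlapping or antisense genes cannot be told apart.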

How the data were processed

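Poly(A) RNA of 12 libraries was analysed, and ChIP-Seq libraries of the series were not analysed here. Trimming (Cutadapt) and mapping to tomato genome build 4.0 (TopHat2) were done by the authors, who deposited the read counts per gene made with HTSeq, as unnormalized whole numbers in 1 table of 34075 genes. Identifiers matched none of the entries of the reference gene table (0 matched), so descriptions and Arabidopsis homologs come from the study's supplementary lists, which describe 5112 genes, and no sequence is shown.

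CPM were computed on column totals. Tests used R 4.3.3 with edgeR 4.0.16 (TMM, filterByExpr at its defaults of 10 reads per library and 15 in total, glmQLFit, glmQLFTest, Benjamini-Hochberg adjustment over all genes tested). Each organ was fitted apart for N contrasts, and all 12 libraries together for organ contrasts and the interaction. All 48 members passed the filter in every fit. Alternatives were DESeq2 1.42.0, other scalings, no filter, the treatment's 6 libraries alone, no fold limit, a replicate block and leaving out each library, which was added for the N contrasts after seeing the data. In a simulated contrast of shoots against roots in −N on 22135 genes, 92 of 100 genes changed 3-fold and 97 of 100 changed 8-fold were recovered, with 1 false call. Counts were drawn from the spread that edgeR itself had fitted, and all other genes were set equal between groups. In the data 19.8% and 18.1% of genes were called in that contrast, so the simulation does not measure the error there.

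The members, gene lists and tests were chosen with earlier results of these data known, and role groups were drawn up by hand from the members' descriptions. Genes given in full followed a rule: in each function class the 2 members with the highest +N root CPM, the 5 highest +N root CPM and the 5 largest root ratios with at least 1 CPM in −N roots, the 3 largest called organ differences in −N each way, those at the limits, and the smallest and largest spread (28 genes). Other members were described after their values were seen. P-values measure the spread between pools of plants.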

Additional observations from a re-analysis of the deposited data

Results flagged for a closer look

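The choice of members fixed that the change in shoots was smaller than the change in roots, and the edgeR interaction on the same libraries at an adjusted p of 0.05 accordingly called all 48, with a log2 difference of the changes (shoots minus roots) between −6.71 and −1.38 and a median of −1.93. It is listed as a difference between organs and is a description, not a test of these genes. Groups of 3 libraries are too small for a test of single outlying libraries.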

How the results depend on the processing

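Which genes belonged to the set depended on the limits and the scaling more than on single libraries. A root ratio of 2 gave 126 genes, a root ratio of 5 gave 12, and a shoot ratio between 0.9 and its inverse gave 21. TMM-scaled CPM gave 43 genes and DESeq2 size factors 44, each with 22 of the 48. Leaving out 1 library gave 46 to 63 genes, the most without root −N replicate 3, with 43 to 48 of the members kept. In shoots, the 26 members higher in +N at an adjusted p of 0.05 became 5, with 2 lower, under total counts, and 21 to 26 with a library left out.

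Organ calls were stable in number: in −N, 21 to 22 members were higher in shoots and 8 to 9 in roots with a library left out, and in +N 11 and 25 to 27. Of the genes named by the rule, the difference of LUMINIDEPENDENS (Solyc09g074690.3) in −N, −1.01, fell inside 2-fold with a library left out in 3 fits, up to −0.86 without root −N replicate 3, and that of Solyc04g058160.2 in +N in 2 fits, while Solyc06g050760.1 in −N passed the limit in 3 fits. The FLU gene Solyc09g072880.3 in +N, −0.96, passed the limit with total counts (−1.09) and in 2 fits with a library left out. Among the members whose organ differences are given, signs changed where organs were near equal. In −N, Solyc03g031530.4 gave −0.0083 with DESeq2, −0.0077 with its size factors in edgeR and −0.0399 with total counts, and Solyc04g040220.3 gave −0.00056 with total counts. In +N, the purine permease Solyc08g077370.4, −0.09, gave 0.0111 without root +N replicate 2 and 0.0028 without shoot +N replicate 2, in a range of −0.21 to 0.0111 with a library left out. The cause was not tested.

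Replicate numbers were not used to pair the samples in the main fits. Deviations of same-numbered libraries correlated between −0.032 and 0.051, which does not settle whether same-numbered root and shoot libraries came from the same plants. With the replicate block, edgeR gave 21 and 9 members in −N, 11 and 26 in +N and 26 in shoots at an adjusted p of 0.05, as without it. Depth limits the lowest members, such as the unknown protein gene with 6 reads in −N roots.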
